A study of Mus musculus with 8 samples.

Results

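Efemp1, Fmod, Bgn, Igf2, Bmp6, Bmp7, Ptgds, Slc13a4, Slc6a13 and Slc6a20a are genes typical of the leptomeninges whose RNA level differed between replicate pools of suprachiasmatic nucleus (SCN) tissue. These 10 genes were chosen by symbol, with earlier results of these arrays in view, from 19938 genes that had a probe set annotated to exactly 1 symbol. Each of the 10 had 1 such probe set, and all 10 passed the filter on level that left 12452 genes. They were chosen for their differences between pools, so those differences are given as a description with no test. The same differences enter the error term when groups are compared, and they make groups overlap. Missing a test's threshold and overlap of groups were thus in part fixed by the choice, and nothing is read from either.

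The arrays measured RNA of the SCN, the hypothalamic cell group that keeps circadian time in mammals, in 4 groups of 2 arrays. The groups were Gpr176-/- mice (KO) at circadian time 18 (CT18, subjective night), KO mice at CT6 (subjective day), wild-type mice (WT) at CT18 and WT mice at CT6, all labelled as strain C57BL/6J. All had lived under 12 h of light and 12 h of dark for over 2 weeks before constant darkness, and SCN tissue cut out with a laser from 10 animals was combined for each array. Both arrays of a group, called pools A and B, are thus separate pools of animals, 80 animals in all, and differences between single animals cannot be seen. Gpr176 encodes a G protein-coupled receptor enriched in the SCN, and the labels give no cell type or time at which the gene was lost. Its level lay between 8.02 and 8.56 on the log2 scale in the 4 KO arrays and between 9.31 and 9.87 in the 4 WT arrays, with no overlap. Of a list of 12 genes typical of SCN neurons, 12 passed the filter on level. The arrays' medians of the deposited log2 values spread over 0.0504 and their lower quartiles over 0.139. The lower quartile was highest in KO CT6 pool A (6.17) and lowest in WT CT18 pool A (6.03), the pools with the highest mean level of the 10 genes. The values below were quantile normalized.

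The leptomeninges are the thin pia and arachnoid layers that wrap the brain and follow its large vessels. Their fibroblasts and barrier cells secrete collagens, proteoglycans and growth factors and carry transporters that move solutes between cerebrospinal fluid and tissue. The SCN lies at the base of the brain, directly above the optic chiasm and close to this surface. Some of these genes are also known from other brain cells, Ptgds from oligodendrocytes and Igf2 from the choroid plexus.

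The same 3 pools were the highest for each of the 10 genes: KO CT6 pool A, WT CT18 pool A and WT CT6 pool B. The mean log2 level of the 10 was 7.78 and 7.83 in KO CT18 pools A and B, 8.79 and 8.11 in KO CT6 pools A and B, 8.78 and 7.80 in WT CT18 pools A and B, and 7.94 and 8.54 in WT CT6 pools A and B. Each of the 3 high pools stood beside a lower pool of its own group, and only the KO CT18 group had both pools low. In RNA from bulk tissue such as this, fewer cells of a type and less RNA per cell cannot be told apart.

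**Figure D1:**
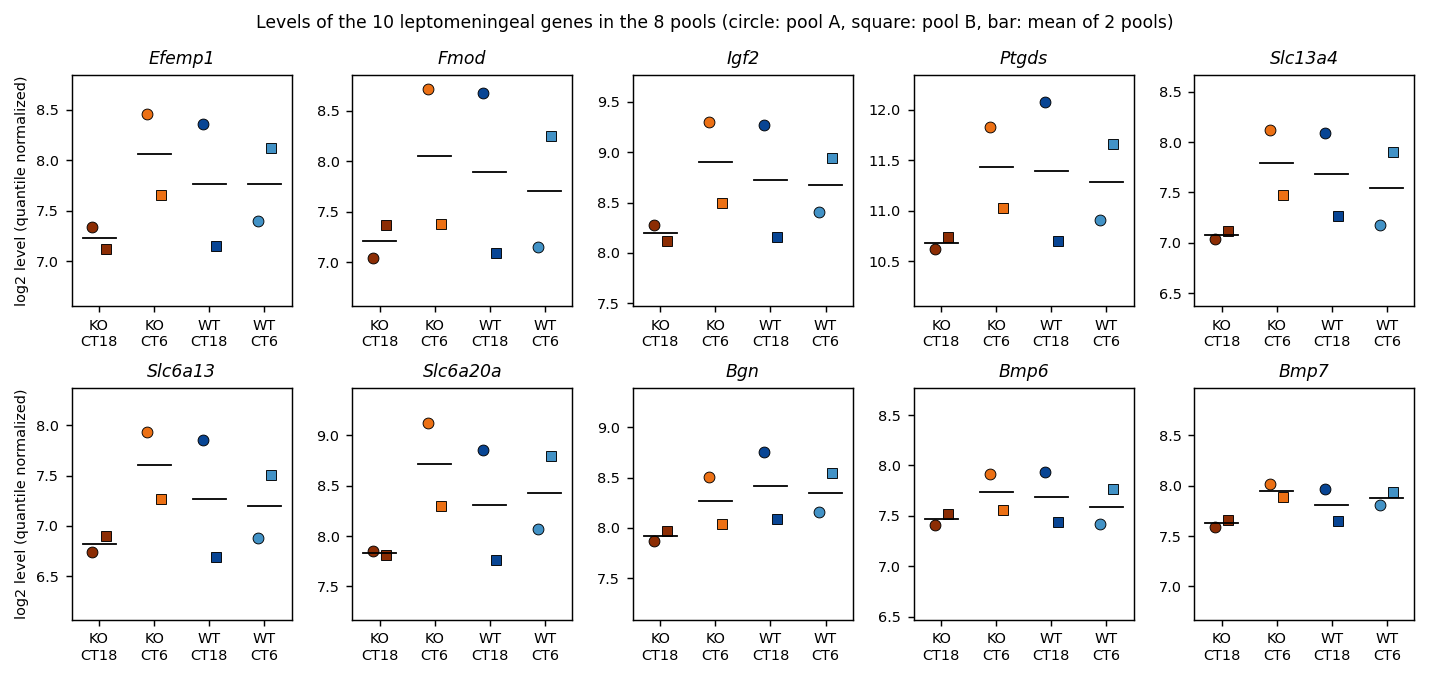
Log2 level (vertical axis, quantile normalized) of each of the 10 genes in the 8 pools, by group on the horizontal axis. Circles are pool A, squares are pool B and the bar is the mean of the 2 pools; every panel spans the same number of log2 units, and KO CT6 A, WT CT18 A and WT CT6 B are the 3 highest points in all 10 panels.

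Of the genes for matrix proteins, Fmod differed most. It encodes fibromodulin, a small leucine-rich proteoglycan that binds collagen fibrils. Its log2 level was 7.04 and 7.37 in KO CT18 pools A and B, 8.72 and 7.38 in KO CT6, 8.68 and 7.09 in WT CT18, and 7.15 and 8.25 in WT CT6. Pool A was above pool B by 1.34 in KO CT6 (2.53-fold) and by 1.59 in WT CT18 (3.01-fold), whereas in WT CT6 pool B was the higher by 2.14-fold. Fmod had the largest standard deviation between pools within groups (0.839 log2 units) of the 12452 genes, and its 8 arrays covered 1.68 log2 units, or 3.20-fold. Both KO CT18 pools lay narrowly below both KO CT6 pools, and every other pair of groups overlapped.

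Efemp1 encodes fibulin-3, a glycoprotein of the extracellular matrix. It measured 7.34 and 7.12 in KO CT18 pools A and B, 8.46 and 7.65 in KO CT6, 8.36 and 7.15 in WT CT18, and 7.40 and 8.12 in WT CT6 (log2). Its lowest pool, KO CT18 B, and its highest, KO CT6 A, differed by 2.53-fold, and the pools of WT CT18 alone differed by 2.31-fold. Bgn encodes biglycan, a proteoglycan of the same family as fibromodulin. It measured 7.87 and 7.97 in KO CT18, 8.51 and 8.04 in KO CT6, 8.75 and 8.09 in WT CT18, and 8.16 and 8.55 in WT CT6. The KO CT18 pools were the lowest of the 8, and both lay below all 4 WT pools. The spread of Bgn between pools within groups was smaller than that of Fmod, at an SD of 0.320, which ranked it at number 35 of the 12452 genes.

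Of the growth factors, Igf2 varied most. This gene is imprinted and encodes insulin-like growth factor 2, which leptomeningeal cells release. Its log2 level was 8.28 and 8.12 in KO CT18 pools A and B, 9.30 and 8.50 in KO CT6, 9.27 and 8.16 in WT CT18, and 8.41 and 8.94 in WT CT6. The 3 high pools were separated from the other 5 by 0.44. Bmp6 and Bmp7 encode ligands of the bone morphogenetic protein (BMP) family, which signal through receptor serine kinases and SMAD proteins. Bmp6 measured 7.41 and 7.52 in KO CT18, 7.92 and 7.56 in KO CT6, 7.94 and 7.44 in WT CT18, and 7.42 and 7.77 in WT CT6. Its 3 highest pools were those of the other genes, on a smaller scale, with a range of 0.52 log2 units. Bmp7 measured 7.59 and 7.66 in KO CT18, 8.02 and 7.89 in KO CT6, 7.97 and 7.65 in WT CT18, and 7.81 and 7.94 in WT CT6. It covered the smallest range of the 10, 0.43 log2 units or 1.35-fold, and the lowest of its 3 high pools was only 0.05 above the next pool.

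Ptgds encodes lipocalin-type prostaglandin D synthase, a major secreted protein of cerebrospinal fluid. It measured 10.62 and 10.74 in KO CT18 pools A and B, 11.83 and 11.03 in KO CT6, 12.08 and 10.70 in WT CT18, and 10.91 and 11.66 in WT CT6 (log2). The pools of WT CT18 differed by 2.60-fold and those of KO CT18 by 1.09-fold. Its SD between pools within groups, 0.624, ranked at number 3.

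The remaining 3 genes encode transporters of the plasma membrane. Slc13a4, a sodium-dependent sulfate transporter, measured 7.04 and 7.12 in KO CT18 pools A and B, 8.12 and 7.47 in KO CT6, 8.09 and 7.27 in WT CT18, and 7.18 and 7.90 in WT CT6. Slc6a13 encodes the transporter GAT2, which carries GABA and taurine. It measured 6.74 and 6.90 in KO CT18, 7.93 and 7.27 in KO CT6, 7.85 and 6.69 in WT CT18, and 6.88 and 7.51 in WT CT6. Slc6a20a encodes a carrier of proline and related imino acids. Its level was 7.85 and 7.81 in KO CT18, 9.12 and 8.30 in KO CT6, 8.85 and 7.76 in WT CT18, and 8.07 and 8.79 in WT CT6. For Slc6a13 and Slc6a20a the lowest pool was WT CT18 B, whose partner pool was the second highest of the 8, so that the pools of this group spanned most of the range. For Slc13a4 both KO CT18 pools were below every other pool.

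Pools of the same group differed far more in these genes than in most. The median difference between pools of a group, without sign, was 0.11 for the 10 genes in KO CT18, 0.73 in KO CT6, 1.10 in WT CT18 and 0.67 in WT CT6. Over all 12452 genes the same median was between 0.0644 and 0.0672 in each of the 4 groups. Pools differed by at least 0.5 log2 units in 0 of the 10 genes in KO CT18, 7 in KO CT6, 8 in WT CT18 and 7 in WT CT6. Of all genes, 22 did so in KO CT18 (0.177%), 96 in KO CT6 (0.771%), 30 in WT CT18 (0.241%) and 17 in WT CT6 (0.137%). These counts restate the choice of the genes and nothing is read from them.

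Within 3 of the groups the 10 genes shared which pool was the higher, and the letters A and B carry no stated meaning. Pool A was the higher in KO CT6 and WT CT18 for 10 of 10 genes, and pool B in WT CT6 for 10 of 10. In KO CT18, the group with the smallest differences, pool A was higher for 3 genes and pool B for 7. The same 3 directions occurred in 9.77% of all genes (1217 genes). With each of the 3 differences at least 0.25, they occurred in 27 genes or 0.217%, and 9 of those were from the 10, with Bmp7 the exception. At 0.5 or more in each of the 3 groups there were 11 genes, of which 7 were from the 10. The other 4 were Fxyd5, Kcnj13, Mgp and Serping1. The directions were read from the 10 genes, so their own number in these counts restates the choice and nothing is read from it.

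**Figure D2:**
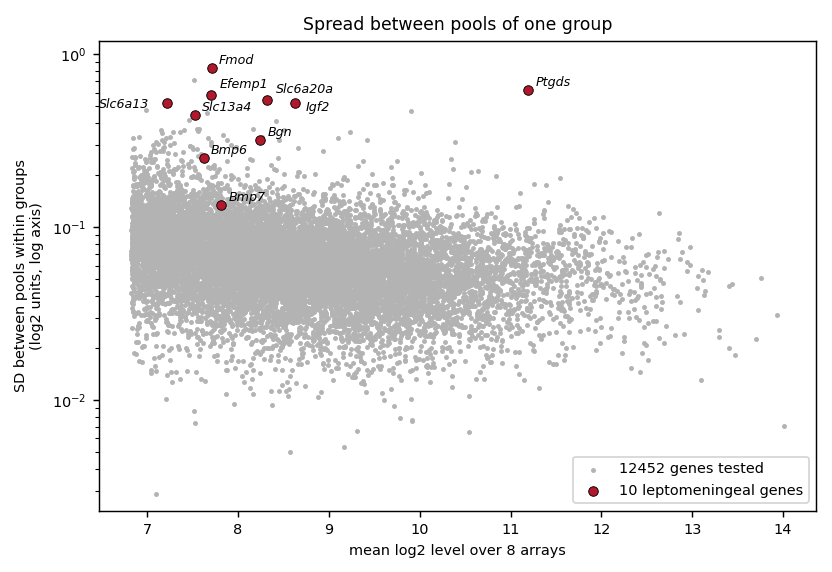
Standard deviation between pools within groups (vertical log axis, log2 units) against mean log2 level over 8 arrays (horizontal axis) for 12452 genes in grey and the 10 genes in red. Fmod is at the top with 0.839 and Bmp7 lies lowest of the 10 with 0.136, against a median of 0.0628 over all genes.

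Variation within groups took up between 38.4% (Bmp7) and 77.7% (Fmod) of the whole variation of each gene, where the median gene had 39.5%. For 9 of the 10 the share exceeded that median. Fmod averaged 7.21 ± 0.227 in KO CT18, 8.05 ± 0.948 in KO CT6, 7.89 ± 1.12 in WT CT18 and 7.70 ± 0.777 in WT CT6 (SD, n = 2 each). Ptgds averaged 10.68 ± 0.0828 in KO CT18, 11.43 ± 0.565 in KO CT6, 11.39 ± 0.974 in WT CT18 and 11.28 ± 0.533 in WT CT6 (SD, n = 2 each). In both genes the KO CT18 mean was the lowest, and the other 3 means differed by less than the SD of any 1 of those 3 groups. Bmp7 averaged 7.63 ± 0.0549 in KO CT18, 7.95 ± 0.0944 in KO CT6, 7.81 ± 0.232 in WT CT18 and 7.88 ± 0.0893 in WT CT6 (SD, n = 2 each).

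The comparison of night with day asks which genes follow the circadian cycle, and in KO mice all 10 genes were lower at CT18. Their median difference, CT18 minus CT6, was -0.73 on the log2 scale, where the median over all genes was 0.01. For 10 of 10 genes both KO CT18 pools lay below both KO CT6 pools, as they did for 23.8% of all genes. The 10 moved together over the pools, so here and in the comparisons below their counts are not separate observations. None of the 10 passed limma's test at an adjusted p of 0.05, beside 7.16% of all genes, which says little since the genes were chosen for a large error term. Adjusted p-values from limma ran from 0.0834 for Bmp7 to 0.401 for Fmod. Bmp7, with the smallest spread between pools, differed by -0.33 ± 0.100 (SE, 95% interval -0.55 to -0.10), and Slc6a20a by -0.88 ± 0.356 (interval -1.67 to -0.08). At an unadjusted p under 0.05 there were 4 of the 10, Slc13a4, Slc6a13, Slc6a20a and Bmp7, beside 22.5% of all genes. Limma draws each gene's spread toward that of all genes. Without that step, the SE here would equal the gene's SD between pools within groups. That SD was 0.545 for Slc6a20a and 0.136 for Bmp7, above the SEs of 0.356 and 0.100. The genes' own spread alone would give wider intervals, so nothing is read from these 4. Without KO CT6 pool A the median difference was -0.33, and without KO CT6 pool B it was -1.10. Leaving out WT CT18 pool A or B, pools outside this comparison that enter its estimate of spread, gave Bmp7 the same difference with a limma adjusted p of 0.0299.

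In WT mice the 10 genes showed no common direction between night and day. The median of CT18 minus CT6 was 0.07, with 7 genes higher and 3 lower, and the groups overlapped in 10 of 10 genes, where they did not in 52.2% of all genes. Large differences between pools favour such overlap, so it was in part fixed by the choice of the genes. None passed limma's test or reached an unadjusted p under 0.05, against 6.94% and 21.8% of all genes, and adjusted p-values ran from 0.755 to 0.999. Efemp1 differed by -0.001 ± 0.377 (SE), with a 95% interval of -0.85 to 0.84. The median difference took the sign of whichever WT CT18 pool was used: -0.51 without WT CT18 pool A and 0.57 without WT CT18 pool B. Leaving out WT CT6 pool A gave -0.24 and leaving out WT CT6 pool B gave 0.33.

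**Figure D3:**
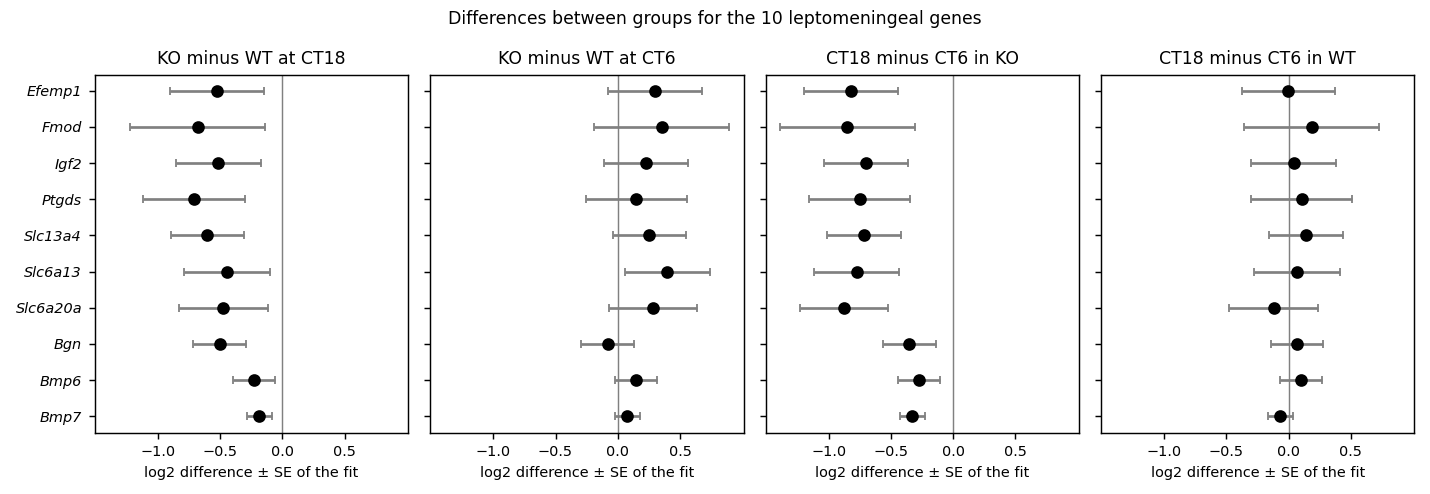
Log2 difference (horizontal axis) with the standard error of the limma fit for each of the 10 genes (rows) in KO minus WT at CT18, KO minus WT at CT6, CT18 minus CT6 in KO and CT18 minus CT6 in WT. All 10 points are below 0 for KO minus WT at CT18 and for CT18 minus CT6 in KO, where the medians are -0.51 and -0.73, and all 10 bars reach 0 for CT18 minus CT6 in WT.

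Whether loss of Gpr176 goes with a different level was asked at each time. At CT18 all 10 genes were lower in KO, with a median KO minus WT of -0.51. The groups did not overlap for 2 of them, Slc13a4 and Bgn, beside 26.7% of all genes lower without overlap. None was called by limma (0.00803% of all genes were), adjusted p-values ran from 0.386 to 0.601, and 1 gene, Bgn, had an unadjusted p under 0.05, as did 12.5% of all genes. Bgn differed by -0.50 ± 0.212 (SE) and Ptgds by -0.71 ± 0.406. The median rested on WT CT18 pool A: it was 0.03 without that pool and -1.02 without WT CT18 pool B.

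At CT6 the median KO minus WT was 0.24, with 9 genes higher in KO and Bgn lower. The groups overlapped for 10 of 10 genes (they did not for 32.8% of all genes), and none was called by limma or had an unadjusted p under 0.05, where 0.00803% and 4.24% of all genes did. The overlap here too was in part fixed by the choice of the genes. Adjusted p-values ran from 0.975 to 0.984. The largest difference was that of Slc6a13, 0.40 ± 0.343 (SE). Leaving out 1 pool turned the median in both directions, to -0.12 without KO CT6 pool A and -0.07 without WT CT6 pool A, and to 0.60 without KO CT6 pool B and 0.57 without WT CT6 pool B.

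Over both times KO minus WT had a median of -0.13, with none of the 10 called (0.0241% of all genes) and 0 at an unadjusted p under 0.05 (12% of all genes). That median ran from -0.40 without WT CT18 pool B to 0.11 without WT CT18 pool A, and was also above 0 without KO CT6 pool B (0.054) or WT CT6 pool B (0.025). Over both genotypes CT18 minus CT6 had a median of -0.33, and again 0 genes were called by limma (16.8% of all genes), with 1, Bmp7, at an unadjusted p under 0.05 (30.5% of all genes). It ran from -0.63 without WT CT18 pool A to -0.06 without WT CT18 pool B, and without WT CT18 pool A limma called Bmp7 (-0.28, adjusted p = 0.0141) and Slc6a20a (-0.77, adjusted p = 0.0465). The test of the difference between genotypes, KO minus WT, in CT18 minus CT6 gave a median of -0.79. The adjusted p in limma was 0.944 for each of the 10, and 0 of the 12452 genes were called, with 605 genes (4.86%) and 0 of the 10 at an unadjusted p under 0.05. Without WT CT18 pool A this median was -0.20 and without WT CT18 pool B -1.30, and it was -0.35 without KO CT6 pool A and -0.47 without WT CT6 pool A.

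Other leptomeningeal genes moved with the 10 in part. Of a list of 30 others, chosen with earlier results known, 14 passed the filter. In the 3 groups 10 of these had the same directions, beside 9.77% of all genes past the filter. Without the filter it was 23 of 30, beside 9.755% of all 19938 genes. Serping1, which encodes the C1 inhibitor of complement, had log2 levels of 8.04 and 7.99 in KO CT18 pools A and B, 8.83 and 8.25 in KO CT6, 9.02 and 8.29 in WT CT18, and 8.12 and 8.83 in WT CT6. Its 3 highest pools were those of the 10 genes. Dcn, which encodes the proteoglycan decorin, measured 7.86 and 7.88 in KO CT18, 8.54 and 8.17 in KO CT6, 8.80 and 8.18 in WT CT18, and 8.03 and 8.63 in WT CT6. Ogn, another proteoglycan of this class, was under the filter on average but measured 6.22 and 6.13 in KO CT18, 7.20 and 6.38 in KO CT6, 7.88 and 6.14 in WT CT18, and 6.15 and 7.01 in WT CT6. Both followed the same 3 pools.

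The fibrillar collagen genes that mark fibroblasts were not alike in this. Col1a2 had the directions of the 10, whereas Col1a1 measured 7.58 and 7.64 in KO CT18 pools A and B, 7.68 and 7.64 in KO CT6, 7.48 and 7.61 in WT CT18, and 7.77 and 7.71 in WT CT6. Its WT CT18 pool A was the lowest of the 8, opposite to the 10 genes. Col3a1, Lama1 and Cdh11 also lacked the 3 directions. The lineage transcription factors of the list, Foxc1 (mean 5.91), Foxc2, Foxd1, Osr1, Tbx18 (mean 5.94) and Twist1, lay below the filter level of 6.82. So did the proteoglycan gene Lum (mean 5.55). Below the filter, Foxc1, Foxc2, Osr1 and Tbx18 had the directions of the 10, whereas Foxd1, Twist1 and Lum lacked them. Pool A minus pool B in KO CT6, WT CT18 and WT CT6 was 0.02, 0.66 and -0.16 for Foxc1. For Foxc2 it was 0.06, 0.77 and -0.45. Osr1 covered a range of 1.25 log2 units. No gene of this list was called by limma in any of the 7 comparisons, and at an unadjusted p under 0.05 there were between 0 and 2 of the 14 a comparison. Over all genes the share called was 0% to 16.8% a comparison, and the share at an unadjusted p under 0.05 was 4.24% to 30.5%.

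**Figure D4:**
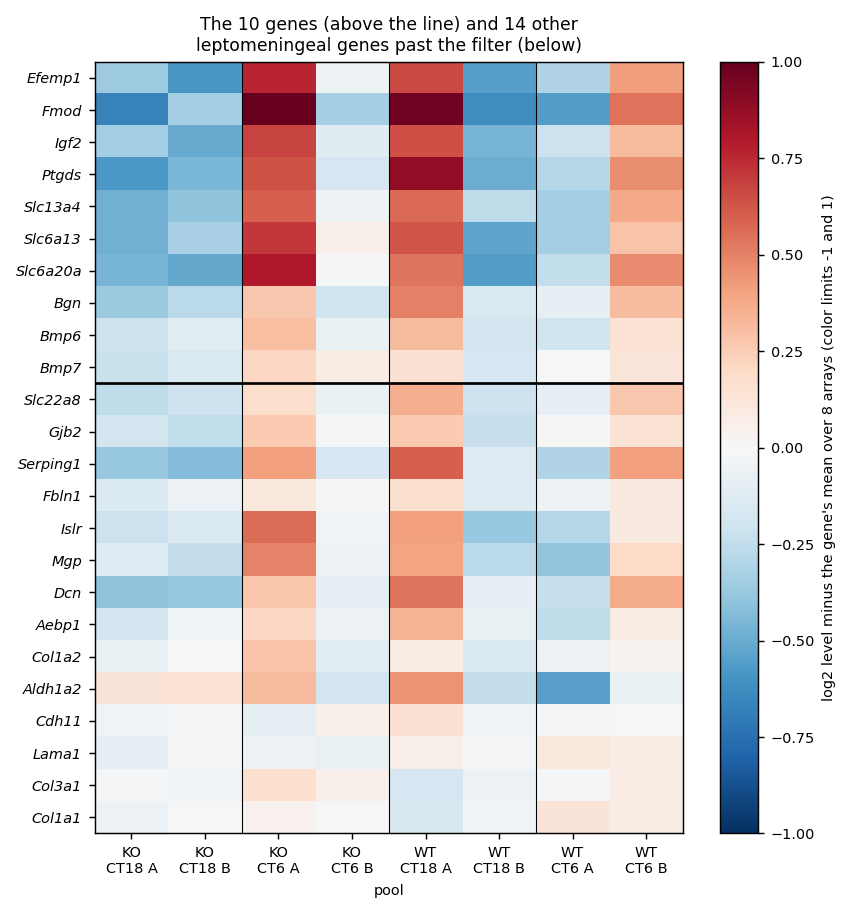
Log2 level minus the gene's own mean over 8 arrays (colour, red above and blue below the mean, limits -1 and 1) for the 10 genes above the line and the 14 other leptomeningeal genes past the filter below it, with the 8 pools as columns. KO CT6 A, WT CT18 A and WT CT6 B are red for all 10, and the 4 lowest rows, Cdh11, Lama1, Col3a1 and Col1a1, do not follow them.

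The genes most like the 10 across the 8 arrays were sought by Pearson's r with the mean deviation of the 10. Genes with symbols of the Gm, Rik, Mir, Snor, Olfr and Vmn kinds were passed over when the 12 were listed. The 12 most alike were Gfap (r = 0.980), Emp3 (0.977), Fn1 (0.977), Eya1 (0.974), Kcnj13 (0.972), Pcolce (0.966), Slc22a8 (0.956), Gjb2 (0.953), Serping1 (0.952), Fbln1 (0.951), Islr (0.946) and Mgp (0.942). The 10 genes themselves had r between 0.922 and 0.991, which is in part built in, since each of them enters that mean. All points share the same 8 arrays and their processing, and after KO CT6 pool A and WT CT18 pool A were left out the 12 had r between 0.819 and 0.988 over 6 arrays. The 12 had been picked with these 6 arrays included. An r above 0.9 was found for 36 other genes, 0.289% of those tested. Of the 12, 6 were on the list of 30: Slc22a8, Gjb2, Serping1, Fbln1, Islr and Mgp.

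Gfap, the intermediate filament gene of astrocytes, had the highest r with a far smaller range. Its log2 level was 10.18 and 10.24 in KO CT18 pools A and B, 10.63 and 10.37 in KO CT6, 10.58 and 10.16 in WT CT18, and 10.20 and 10.55 in WT CT6, a range of 0.48. Fn1, which encodes the matrix protein fibronectin, measured 8.33 and 8.28 in KO CT18, 8.91 and 8.37 in KO CT6, 8.97 and 8.25 in WT CT18, and 8.24 and 8.73 in WT CT6. Kcnj13, a potassium channel gene of choroid plexus and other epithelia, measured 6.71 and 6.68 in KO CT18, 7.49 and 6.76 in KO CT6, 7.65 and 6.69 in WT CT18, and 6.67 and 7.25 in WT CT6. In both genes the 3 high pools of the 10 stood above the other 5.

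Marker lists of the other cell types that a cut around the SCN could hold were set beside these values. Of 9 oligodendrocyte genes past the filter, 8 had the same directions between pools, beside 9.77% of all genes, with Opalin the exception. Their mean log2 level was 9.45 and 9.55 in KO CT18 pools A and B, 9.78 and 9.60 in KO CT6, 9.82 and 9.44 in WT CT18, and 9.71 and 9.85 in WT CT6. The list thus moved in the same pools over 0.41 log2 units, against 1.01 for the mean of the 10 genes. Mbp and Cnp, its brightest members and both genes of myelin, ranged from 11.06 to 11.22 and from 10.70 to 10.99. Opalin, a gene of mature oligodendrocytes, fell at CT18 in KO by 0.75 ± 0.0964 (SE, limma adjusted p = 0.00168) and in WT by 0.56 ± 0.0964 (adjusted p = 0.00818). Since oligodendrocytes also make Ptgds, their share of the Ptgds differences was not tested.

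Vascular and glial lists moved less. The directions of the 10 occurred in 9.77% of all genes. Of the mural list 3 of 8 genes past the filter had them (Pdgfrb, Acta2 and Vtn). The endothelial and astrocyte lists each had 3 of 10, the astrocyte genes being Gfap, Aqp4 and S100b. The mean level of the mural list lay between 7.94 and 8.24, that of the endothelial list between 7.92 and 8.12 and that of the astrocyte list between 10.29 and 10.49 over the 8 arrays. Acta2, the smooth muscle actin gene, fell at CT18 in KO by 0.53 ± 0.0905 (adjusted p = 0.00809). Over both genotypes limma called 4 of the 8 mural genes lower at CT18 (Acta2, Tagln, Pdgfrb and Notch3), beside 16.8% of all genes called either way. The microglial, ependymal and border macrophage lists had 1 gene each with these directions, of 7, 7 and 1 past the filter, and 8 of the 9 border macrophage genes lay below it. Of the choroid plexus list 1 of 4 genes past the filter, Kcnj13, had the directions. Ttr, the gene for its defining transport protein, had a mean of 6.78 and Otx2 one of 5.54, both below the filter, and the brightest genes of that list were Calml4 (7.48 to 7.86) and Folr1 (6.88 to 7.21). Limma called Calml4 and Folr1, 2 of the 4, lower at CT18 over both genotypes, beside 16.8% of all genes called either way. The choroid plexus list's mean level lay between 7.02 and 7.32, the microglial between 8.04 and 8.20 and the ependymal between 8.52 and 8.72. Of 12 SCN neuron genes, 0 had the directions of the 10. The part of each of these cell types in the differences between pools was not tested.

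**Figure D5:**
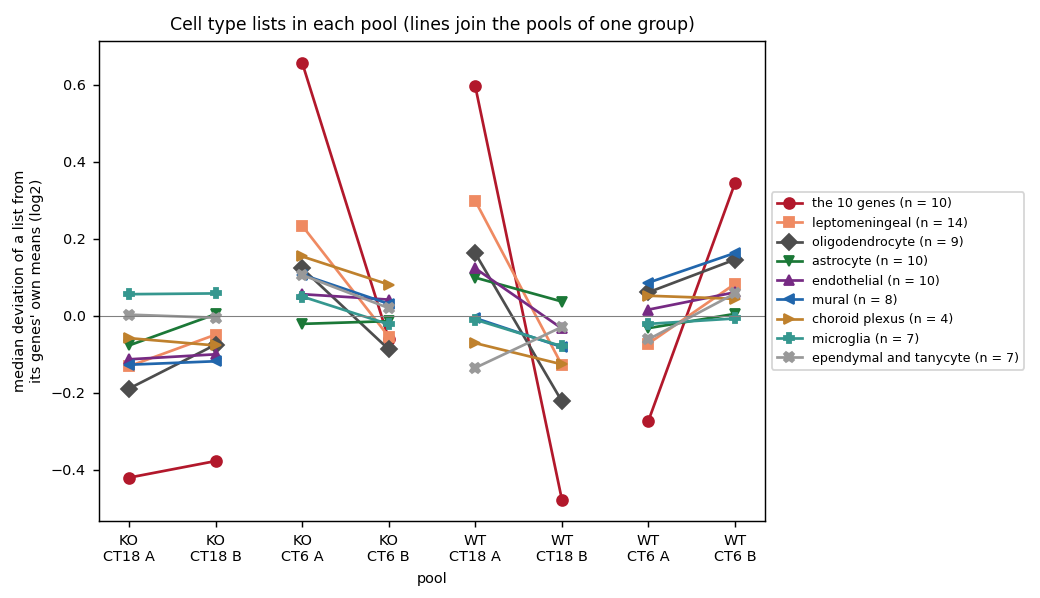
Median deviation of each list from its genes' own means over 8 arrays (vertical axis, log2) in the 8 pools (horizontal axis), with a line between pools of the same group; n is the number of genes past the filter, and "leptomeningeal" is the list of other leptomeningeal genes. The 10 genes span the widest range, and the other leptomeningeal and oligodendrocyte lists follow the same 3 pools on a smaller scale. The KO CT18 pools are below 0 in all 3. In the other leptomeningeal and oligodendrocyte lists KO CT18 B is only at -0.049 and -0.075, above WT CT18 B at -0.128 and -0.222.

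Relatives of the 10 genes in the same families and pathways followed them in part. Past the filter, the share with the directions of the 10 ran from 6.67% to 66.7% by list. Below the filter Omd, Aspn, Chad, Igfbp2, Igfbp6, Bmp5 and Slc26a7 were among those that had them. Others there, such as Kera, Fbln2, Igf2bp1, Bmp2 and Slc13a1, lacked them. Directions are counted by sign alone, whatever the size, and 9.77% of all genes had those of the 10. Of the other small leucine-rich proteoglycans 3 of 10 passed the filter, and Dcn and Prelp had the directions of Fmod and Bgn. In Prelp pool A minus pool B was only 0.01 in KO CT6, 0.07 in WT CT18 and -0.06 in WT CT6. Prelp fell at CT18 in KO by 0.23 ± 0.0537 (SE, limma adjusted p = 0.0360), the only gene of this list called in a comparison of 2 groups. Of the fibulins and fibrillins, relatives of Efemp1, 2 of 5 past the filter had the directions (Fbln1 and Fbln7), and Fbln5 rose at CT18 in WT by 0.22 ± 0.0551 (adjusted p = 0.0420). Of 8 other genes of the insulin-like growth factor pathway past the filter Igf1 and Igfbp7 had the directions of Igf2, and Igfbp5, a binding protein, fell at CT18 in both genotypes (by 0.32 in KO and 0.35 in WT). The counts of called genes in these lists, 0 or 1 a comparison, stand beside backgrounds of 7.16% in KO and 6.94% in WT.

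BMP signalling genes were tested beside Bmp6 and Bmp7. Bmp4, another ligand, had the directions of the 10, with 7.38 and 7.35 in KO CT18 pools A and B, 7.55 and 7.35 in KO CT6, 8.07 and 7.48 in WT CT18, and 7.44 and 7.81 in WT CT6. It was 1 of 10 other ligands and antagonists past the filter to do so, and Id1, a target gene of BMP receptors, was 1 of 15 receptors, SMADs and targets past it. In Id1 pool A minus pool B was 0.02 in KO CT6, 0.09 in WT CT18 and -0.24 in WT CT6. Bambi, which encodes a decoy receptor, fell at CT18 in KO by 0.42 ± 0.0735 (limma adjusted p = 0.00911) and in WT by 0.32 (adjusted p = 0.0310). Gdf10 rose at CT18 in KO by 0.39 ± 0.0771 (adjusted p = 0.0161). The receptor gene Acvr2a rose at CT18 in KO by 0.24 and in WT by 0.28, and Bmpr1b rose in WT by 0.20. None of these called genes had the pool directions of Bmp6 and Bmp7, which occurred in 9.77% of all genes. Limma called 7.16% of all genes in KO and 6.94% in WT. A call favours genes whose pools differ little, so nothing is read from the missing directions.

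Among 5 other prostaglandin genes past the filter, Ptges, a prostaglandin E synthase, and Hpgd, which inactivates prostaglandins, had the directions of Ptgds by small differences. Pool A minus pool B in KO CT6, WT CT18 and WT CT6 was 0.01, 0.18 and -0.07 for Ptges. For Hpgd it was 0.03, 0.01 and -0.10. Hpgd fell at CT18 in KO by 0.23 ± 0.0553 (limma adjusted p = 0.0387). Of 8 other SLC6 transporters past the filter 1, Slc6a11, a GABA transporter of astrocytes, had the directions of Slc6a13 and Slc6a20a. Its pool A minus pool B was only 0.05 in KO CT6, 0.08 in WT CT18 and -0.02 in WT CT6. Below the filter Slc6a12, a betaine and GABA transporter, had these directions too. Its differences were 0.20 in KO CT6, 0.44 in WT CT18 and -0.27 in WT CT6. The dopamine transporter gene Slc6a3 rose at CT18 in KO by 0.77 ± 0.0526 (adjusted p = 3.24e-05) and in WT by 0.54 (adjusted p = 0.000285). Slc6a15 and Slc6a17, transporters of neutral amino acids, fell at CT18 in both genotypes. Of 4 other SLC13 and SLC26 anion transporters past the filter, Slc13a3 and Slc26a2 had the directions of Slc13a4, and 0 were called in any comparison of 2 groups, with at most 1 of the 4 at an unadjusted p under 0.05.

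Promoter windows were read for the genes because their levels moved together across 8 different chromosomes (1, 2, 6, 7, 9, 11, 13 and X). RefSeq (GRCm38.p6) windows of 300 bases, from 250 before to 50 after an annotated start, were matched for 9 of the 10 genes, 14 windows in all. Short motif letters were searched on both strands in these and in all 32851 windows. The sequences show the 2 genes that varied most by rank among those without a match, Fmod and Ptgds, and the 3 genes with one; capitals mark CAGCAGG or its reverse complement CCTGCTG in Igf2 and Slc13a4 and CACGTG in Bmp6.
Fmod, chr1:134037004-134037303, plus strand: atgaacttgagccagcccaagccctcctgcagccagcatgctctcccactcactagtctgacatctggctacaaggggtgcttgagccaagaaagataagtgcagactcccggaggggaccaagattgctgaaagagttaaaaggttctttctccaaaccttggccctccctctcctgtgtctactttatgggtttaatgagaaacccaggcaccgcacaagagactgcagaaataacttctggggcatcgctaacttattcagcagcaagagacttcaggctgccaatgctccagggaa
Ptgds, chr2:25469700-25469999, minus strand: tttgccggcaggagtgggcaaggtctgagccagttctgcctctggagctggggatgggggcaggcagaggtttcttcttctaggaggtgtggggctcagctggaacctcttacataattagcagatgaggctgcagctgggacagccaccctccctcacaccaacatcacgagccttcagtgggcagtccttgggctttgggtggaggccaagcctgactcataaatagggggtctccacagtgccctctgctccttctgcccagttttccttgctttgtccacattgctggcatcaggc
Igf2, chr7:142657447-142657746, minus strand: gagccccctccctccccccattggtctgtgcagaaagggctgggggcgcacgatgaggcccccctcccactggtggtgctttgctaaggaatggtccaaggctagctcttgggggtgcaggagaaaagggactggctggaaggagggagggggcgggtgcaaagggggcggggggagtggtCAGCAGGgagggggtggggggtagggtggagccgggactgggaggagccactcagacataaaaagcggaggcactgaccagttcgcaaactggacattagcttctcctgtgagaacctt
Slc13a4, chr6:35308077-35308376, minus strand: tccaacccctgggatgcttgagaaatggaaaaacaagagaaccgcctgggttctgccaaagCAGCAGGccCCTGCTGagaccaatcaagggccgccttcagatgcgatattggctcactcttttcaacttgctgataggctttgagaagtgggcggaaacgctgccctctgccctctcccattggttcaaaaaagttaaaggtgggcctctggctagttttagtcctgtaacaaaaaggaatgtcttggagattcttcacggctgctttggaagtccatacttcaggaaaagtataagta
Bmp6, chr13:38345466-38345765, plus strand: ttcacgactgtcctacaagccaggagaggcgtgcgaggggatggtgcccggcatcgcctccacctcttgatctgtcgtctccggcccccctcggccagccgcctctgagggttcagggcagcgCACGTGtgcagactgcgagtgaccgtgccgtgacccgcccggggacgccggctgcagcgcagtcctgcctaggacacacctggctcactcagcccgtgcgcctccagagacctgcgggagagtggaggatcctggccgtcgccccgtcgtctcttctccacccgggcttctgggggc

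No letters searched were shared by most of these windows. CAGCAGG, letters of a Zic motif, stood at position -69 from the annotated start in 1 of 4 Igf2 windows and at -189 in Slc13a4, with the reverse complement at -180, and 10.5% of all windows held it. CACGTG, an E-box that reads alike on both strands and whose matches include those of clock factors, stood at -127 in Bmp6 and in 7.15% of all windows. TATAAA (13.6% of all windows), GTAAACA of forkhead factors (3.65%), TCACACCT of T-box factors (1.28%) and TGACGTCA, the cAMP response element (1.79%), were in 0 of the 14 windows. GC content ran from 48.7% to 69.3% in the 14 windows, against a median of 52.7% over all. A match describes letters only, and the absence of one says nothing about a factor.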

How the data were processed

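The authors deposited log2 values of 28853 probe sets on 8 arrays, from column-purified RNA amplified and biotin-labelled with whole-transcript kits, per the labels' protocols. Background correction, summarisation and normalization upstream are not given in the sources used here. Before testing, the columns were quantile normalized, which gives every array the same distribution. The platform annotation gave 21789 probe sets exactly 1 symbol, and 21698 of them matched RefSeq GRCm38.p6. The brightest probe set by mean stood for each of 19938 genes, and genes under the 40th percentile of all probe sets (6.82 log2) were left out, leaving 12452. Each group had 2 arrays, which limits the precision. The p-values rest on the spread between these pools, drawn by limma toward that of all genes. The model, run in limma 3.58.1 (R 4.3.3), had 1 mean for each group over the 8 arrays, with 4 residual and 5.58 prior degrees of freedom, and called at a Benjamini-Hochberg adjusted p of 0.05 over 12452 genes. Values after ± are standard errors unless an SD is named. The fit was tested on simulated data.

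The members and all lists were chosen with earlier results of these data known. Named are the 10 members, Gpr176 and the 12 genes most alike by r. Others were drawn from up to 4 called genes of each list and contrast by smallest p, and from the brightest 2 of marker lists. Not all of these are named, so lists without a named call can hold called genes. Examples are Tek of the endothelial, Fgfr3 of the astrocyte, Rarres2 of the ependymal and Prok2 of the SCN neuron list, for CT18 minus CT6 in KO. Dcn, Ogn, Col1a1, Bmp4 and other list members named for their pool directions were named after their values were seen. The letters A and B mark no stated pairing, so they were not used as a block in the main fit. Differences between pools correlated between groups at r from -0.22 to 0.26 over all genes. The highest r was that between KO CT6 and KO CT18, so pools of the same letter were not free of shared differences. Alternatives were the deposited values, median centring, other filters, the mean of probe sets, array weights, the block and leaving out each array.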

Additional observations from a re-analysis of the deposited data

How the results depend on the processing

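None of the 10 genes was called in any of the 7 comparisons under the deposited values, median centring, either other filter, the mean of probe sets, array weights or the replicate block. Leaving out 1 array, where the lone array of a group is assumed to vary like the others, gave calls for Bmp7 and Slc6a20a only, both without WT CT18 pool A (Bmp7 also without WT CT18 pool B), in the comparisons of CT18 with CT6 in KO or over both genotypes. Of 110 values of the 10 genes, the largest shift was 0.069 log2 with the deposited values and 0.087 with median centring, and 0 moved by more than the gene's own SD between pools, which is large by the choice of these genes. The mean of probe sets could move none, since each gene has 1 probe set. Of the counts over all genes, median centring gave 590 for CT18 minus CT6 in KO (274 higher, 316 lower) against 891 (452 higher, 439 lower), 3 against 1 for KO minus WT at CT18, 2 against 1 at CT6 and 5 against 3 over both times. The deposited values gave 2 for KO minus WT at CT6 and 6 over both times, no filter gave 1 over both times, and the replicate block gave 2 at CT6. The replicate block changed no call of the 10. With the mean level of the 10 genes as a covariate, an alternative added after the data were seen that uses 1 residual degree of freedom, the count in KO was 329. The cause of these shifts was not tested. Leaving out each array gave 382 to 795 genes for CT18 minus CT6 in KO, 311 to 827 in WT, 1385 to 1803 over both genotypes and 1 to 4 for KO minus WT over both times. The median difference of the 10 genes then ran from -1.10 to -0.33 for CT18 minus CT6 in KO, from -0.51 to 0.57 in WT, from -1.02 to 0.028 for KO minus WT at CT18, from -0.12 to 0.60 at CT6 and from -1.30 to -0.20 for the difference between genotypes in CT18 minus CT6. The arrays that set these ends are named beside each result above.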

Other observations

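Among the 40 genes with the largest SD between pools within groups, 8 were from the 10, which restates their choice. Of the 40, 18 had the pool directions of the 10. Another 17 were olfactory receptor (Olfr) genes. All 17 had pool A above pool B in both KO groups, as did 155 of 168 Olfr genes past the filter (92.3%), against 14.3% of all genes. The median of pool A minus pool B over the 168 was 0.21 in KO CT18, 0.43 in KO CT6, -0.09 in WT CT18 and 0.02 in WT CT6. Olfr485 measured 7.91 and 7.28 in KO CT18 pools A and B, 8.19 and 7.19 in KO CT6, 7.48 and 8.01 in WT CT18, and 7.53 and 7.65 in WT CT6.

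Gh, which encodes growth hormone, ranked at number 2 by that SD. Its log2 level was 7.08 and 8.20 in KO CT18 pools A and B, 8.31 and 7.56 in KO CT6, 6.91 and 6.94 in WT CT18, and 6.82 and 8.30 in WT CT6. Its high pools KO CT6 A and WT CT6 B were also high in the 10 leptomeningeal genes, whereas KO CT18 B was high in Gh and low in the 10, and WT CT18 A was low in Gh and high in the 10. Serpind1, which encodes a plasma inhibitor of thrombin, had the pool directions of the 10, with 7.24 and 7.13 in KO CT18, 7.64 and 7.38 in KO CT6, 8.14 and 7.05 in WT CT18, and 7.39 and 7.74 in WT CT6. These genes were named after their values were seen.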
